A study of Mus musculus with 6 samples.

Results

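Lysosomes are acidic organelles in which hydrolases break down proteins, glycans, sulfated sugars and lipids delivered by endocytosis and autophagy. Most of these enzymes are carried from the Golgi to the lysosome with a mannose-6-phosphate tag, while membrane proteins such as Lamp1 and Lamp2 protect the boundary and move substances across it. Tfeb and Tfe3 are basic helix-loop-helix transcription factors that bind a motif with the core CACGTG, named the CLEAR element, in the promoters of many lysosomal genes. Their entry into the nucleus is restrained by the kinase complex mTORC1. In adipocytes, lysosomes hydrolyse lipoprotein cholesteryl esters and take part in the breakdown of lipid droplets, and macrophages express many of the same genes at high levels.

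The mRNA levels of 40 lysosomal genes were followed in control (CTL) and Nelfb-/- cells, where Nelfb encodes a subunit of the negative elongation factor that holds RNA polymerase II near promoters. The genes were taken by symbol from the 17924 genes with deposited values, and they are 6 membrane proteins, 11 cathepsins and other peptidases, 9 glycosidases, 5 sulfatases and acid phosphatases, 4 lipid hydrolases, 3 activator proteins and granulin, and 2 TFEB factors. Every member was found, and all 40 were among the 16251 genes tested. CTL cells carried Nelfb fl/wt or Nelfb wt/wt and Nelfb-/- cells carried Nelfb fl/fl, and both groups carried 1 copy of Pdgfra-Cre (Pdgfra-Cre+/-), so that controls could have lost 1 allele of Nelfb at most. Dermal fibroblasts from the dorsal skin of newborn (P0) C57BL/6J mice were kept in adipocyte differentiation medium for 14 days, and total RNA of 3 biological replicates per genotype was sequenced. Cre under Pdgfra is active in cells of the fibroblast and adipocyte lineage, so that other cells of the culture, if present, need not have lost Nelfb. The labels do not say whether a replicate came from 1 mouse or from pooled mice.

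The depth on the listed genes was 17.2 to 29.4 M reads (M, 1e+06), and the floor of 3 reads was worth 0.102 to 0.175 CPM (reads of a gene scaled to a total of 1e+06 over the listed genes). This floor covers counting error only, and the lowest member, Tfeb, was at 8.79 CPM or more in every library. Nelfb was at 17.3, 19.6 and 22.3 CPM in CTL and at 5.50, 3.90 and 5.55 CPM in Nelfb-/- cells, and every deleted library was lower (log2 fold change -1.99, SE 0.22, adjusted p = 0.00502 by limma). Adipocyte markers, checked against the labelled cell type, were present in all libraries. They summed to 32713, 30095 and 19461 CPM in CTL and to 12355, 23667 and 19198 CPM in Nelfb-/- cells, with the lowest sum in Nelfb-/- replicate 1. Of these 9 markers 1 was called (Lep, higher), and the median log2 fold change was -0.79, with 6 of 9 not positive. At an unadjusted limma p under 0.05, Adipoq (-1.07), Plin1 (-1.02) and Cfd (-2.03) were lower and Lep was higher. Nelfb-/- replicate 1 stood apart from the other Nelfb-/- libraries in the lysosomal genes, and log2 fold changes without it are given beside most members. RNA of bulk cultures was measured, in which fewer cells of a type and less RNA per cell cannot be told apart.

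A gene was called when its adjusted p was at most 0.05 and it differed at least 2-fold, and by this rule 2 of the 40 members (5%) were higher in Nelfb-/- cells, beside 7.58% of all genes tested. These were the glycosidases Gusb and Man2b1. No member was called lower by limma, beside 3.64% of all genes. In 2 members, Arsa and Smpd1, every Nelfb-/- library was lower than every CTL library (5%, beside 16.1% of all genes). With no limit on the fold, 4 members were higher (Gusb, Man2b1, Sgsh and Ppt1, 10% of the members, beside 9.96% of all genes) and 1 was lower (Arsa, 2.5%, beside 5.83%). Of these 5, Gusb alone kept an adjusted p of at most 0.05 whichever library was left out. At an unadjusted limma p under 0.05, 11 members were higher (27.5%, beside 19.6% of all genes) and 2 were lower (5%, beside 12.9%). The shares of called members were thus close to or below those of all genes. The 2-fold limit lay beside 2 of them, since Sgsh was at a log2 fold change of 0.995 that corresponds to 1.99-fold, and Arsa was at -0.99. With quantile normalization the calls over all genes were 1014 higher and 834 lower in place of 1232 and 592, and the median log2 fold change of all genes moved from 0.068 to -0.068. The count of members called higher was 1 without CTL replicate 1, CTL replicate 2, Nelfb-/- replicate 1 or Nelfb-/- replicate 3, and it was 3 without CTL replicate 3 or Nelfb-/- replicate 2. The shares of all genes called higher were 3.86%, 3.29%, 7.74%, 1.79%, 10.4% and 3.86% in these 6 fits. Without Nelfb-/- replicate 1, Arsa was called lower.

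The promoters of the 5 members with an adjusted p of at most 0.05 (Gusb, Man2b1, Ppt1, Sgsh and Arsa), and of Ctsd and Mcoln1, which hold TCACGTGA, are shown because they carry or lack the core of the TFEB motif. Each window runs from 250 bases before to 50 bases after the RefSeq start (build GRCm38.p6) and is written 5′ to 3′ on the strand of the gene, with the letters CACGTG in capitals and, where present, the longer TCACGTGA. The letters read the same on both strands, and TCACGTGA holds CACGTG. Gusb (chr5:130003000-130003299, minus strand), Man2b1 (chr8:85083019-85083318, plus strand) and Ppt1 (chr4:122835977-122836276, plus strand) hold no CACGTG in this window. Sgsh (chr11:119355461-119355760, minus strand) holds 1, whose first base lies 29 bases before the start, and Arsa (chr15:89477375-89477674, minus strand) holds 1 at 16 bases before the start. Ctsd (chr7:142387778-142388077, minus strand) holds 2, at 245 and 98 bases before the start, and Mcoln1 (chr8:3500269-3500568, plus strand) holds 2, at 71 and 45 bases before the start.
Gusb: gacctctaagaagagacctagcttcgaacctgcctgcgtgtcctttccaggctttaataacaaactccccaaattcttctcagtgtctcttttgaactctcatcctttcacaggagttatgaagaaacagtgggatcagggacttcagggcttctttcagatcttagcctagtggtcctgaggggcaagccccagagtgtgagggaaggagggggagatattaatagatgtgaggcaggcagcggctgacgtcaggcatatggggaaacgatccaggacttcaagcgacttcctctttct
Man2b1: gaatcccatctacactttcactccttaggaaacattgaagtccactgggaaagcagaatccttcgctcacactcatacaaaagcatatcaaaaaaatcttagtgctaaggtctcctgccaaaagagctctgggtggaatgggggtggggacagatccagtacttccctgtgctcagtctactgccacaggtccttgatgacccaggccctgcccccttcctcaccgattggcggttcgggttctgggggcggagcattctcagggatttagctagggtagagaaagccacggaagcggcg
Ppt1: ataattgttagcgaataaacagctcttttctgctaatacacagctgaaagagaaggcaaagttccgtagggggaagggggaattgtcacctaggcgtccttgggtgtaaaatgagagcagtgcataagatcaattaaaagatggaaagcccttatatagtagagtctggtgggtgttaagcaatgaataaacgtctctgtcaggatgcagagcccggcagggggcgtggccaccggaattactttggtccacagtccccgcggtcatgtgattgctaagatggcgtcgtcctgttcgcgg
Sgsh: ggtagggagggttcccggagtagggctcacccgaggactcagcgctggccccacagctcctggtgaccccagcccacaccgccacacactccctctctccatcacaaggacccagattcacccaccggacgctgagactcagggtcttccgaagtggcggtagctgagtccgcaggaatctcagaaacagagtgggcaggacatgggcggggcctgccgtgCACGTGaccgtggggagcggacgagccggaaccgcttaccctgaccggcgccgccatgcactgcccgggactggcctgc
Arsa: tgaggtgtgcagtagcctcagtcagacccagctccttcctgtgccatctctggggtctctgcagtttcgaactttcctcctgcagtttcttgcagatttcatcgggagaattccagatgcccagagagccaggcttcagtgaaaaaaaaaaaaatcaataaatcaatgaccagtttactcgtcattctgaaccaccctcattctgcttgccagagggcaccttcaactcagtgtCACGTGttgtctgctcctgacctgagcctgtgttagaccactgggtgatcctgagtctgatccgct
Ctsd: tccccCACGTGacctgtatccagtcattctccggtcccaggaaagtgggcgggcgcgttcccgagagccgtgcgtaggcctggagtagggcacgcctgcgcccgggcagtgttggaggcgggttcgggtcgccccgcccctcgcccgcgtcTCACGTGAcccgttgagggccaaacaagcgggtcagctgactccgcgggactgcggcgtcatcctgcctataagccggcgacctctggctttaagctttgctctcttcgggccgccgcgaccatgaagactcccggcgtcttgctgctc
Mcoln1: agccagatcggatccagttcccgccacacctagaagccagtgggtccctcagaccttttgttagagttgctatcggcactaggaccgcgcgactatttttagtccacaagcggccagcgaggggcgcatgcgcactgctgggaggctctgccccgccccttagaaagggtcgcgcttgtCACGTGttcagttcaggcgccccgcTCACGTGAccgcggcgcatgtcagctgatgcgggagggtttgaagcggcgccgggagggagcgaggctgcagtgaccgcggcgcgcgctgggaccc

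A promoter window was found for 37 of the 40 members (45 windows), and not for Ctsb, Ctsh and Asah1. CACGTG was present in 13 of the 37 genes (35.1%), beside 8.09% of the 27025 genes with a window, or in 28.9% of the members' windows beside 7.15% of all 32851 windows. TCACGTGA was present in 4 members, Ctsa, Ctsd, Gla and Mcoln1 (10.8%, beside 1.12% of all genes). The longer palindrome, with G before and C after TCACGTGA, was found in 0 of the 37 (0.37% of all genes). Lamp1 held the most copies of CACGTG among the members, at 61, 45, 28 and 15 bases before the start. The 13 members with CACGTG had a median log2 fold change of 0.47, between -0.99 and 1.80, and none of them was called, while 2 (Sgsh and Arsa) had an adjusted p of at most 0.05. The 24 members without it had a median of 0.28, between -0.37 and 1.97, with 2 called and 3 (Gusb, Man2b1 and Ppt1) at an adjusted p of at most 0.05. Without Nelfb-/- replicate 1 the medians were 0.23 and 0.21. The values of the groups with and without these letters therefore overlapped over most of their range. A match of letters is a description and not a site of binding.

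Gusb (beta-glucuronidase, which removes glucuronic acid from glycosaminoglycans) had the largest change among the called members. It lies on chr5:129989011-130003049 (mm10, GENCODE vM21) on the minus strand. It was at 45.7, 33.1 and 46.3 CPM in CTL and at 206, 118 and 153 CPM in Nelfb-/- cells. The lowest Nelfb-/- library lay well above the highest CTL library, and this held with or without replicate 1. The means were 41.7 ± 7.45 and 159 ± 44.4 CPM (SD, n = 3 each), with a log2 fold change of 1.91 (SE 0.24) and a limma adjusted p of 0.00702. Without Nelfb-/- replicate 1 the log2 fold change was 1.71, and Gusb was called in every alternative that was run.

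Man2b1 (lysosomal alpha-mannosidase, which trims mannose from glycoproteins) lies on chr8:85083270-85098282 on the plus strand. It was at 80.5, 68.0 and 59.5 CPM in CTL and at 216, 106 and 136 CPM in Nelfb-/- cells. The groups did not overlap, but replicate 1 was 1.79 times the mean of the other Nelfb-/- libraries. Its log2 fold change was 1.08 (SE 0.28), and p adjusted in limma was 0.045. The call was lost when any of the CTL libraries, Nelfb-/- replicate 1 or Nelfb-/- replicate 3 was left out, with log2 fold changes of 1.20, 1.08, 0.98, 0.80 and 1.13.

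The other 7 glycosidases did not pass the test, with log2 fold changes from -0.37 to 0.64. Glb1 (beta-galactosidase) came nearest, at 35.8, 33.1 and 42.4 CPM in CTL and at 73.7, 49.3 and 51.8 CPM in Nelfb-/- cells (limma adjusted p = 0.0765), with no overlap between the groups and a log2 fold change of 0.64, or 0.45 without Nelfb-/- replicate 1. Hexa (the alpha subunit of beta-hexosaminidase) had a log2 fold change of 0.48, Naglu (which acts on heparan sulfate) of 0.47, Manba (beta-mannosidase) of 0.28 and Gaa (which breaks down glycogen) of 0.22. In each of these 4 genes replicate 1 was the highest library, and without it the log2 fold changes were 0.10, 0.14, 0.041 and 0.00062. Gaa was thus at 198 and 199.7 CPM in Nelfb-/- replicates 2 and 3, level with the CTL mean of 199 CPM. Gla (alpha-galactosidase A) and Neu1 (sialidase) were split within the Nelfb-/- group. Gla was at 44.8, 41.4 and 28.0 CPM in CTL and at 88.0, 26.8 and 27.2 CPM in Nelfb-/- cells. Neu1 was at 48.8, 54.5 and 35.2 CPM in CTL and at 64.5, 24.3 and 27.5 CPM in Nelfb-/- cells. In both genes replicate 1 lay above and replicates 2 and 3 lay below every CTL library. Their log2 fold changes of 0.10 and -0.37 were -0.46 and -0.81 without replicate 1.

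Among the sulfatases and acid phosphatases, Sgsh and Arsa moved in opposite directions. Sgsh (N-sulfoglucosamine sulfohydrolase, a step of heparan sulfate breakdown; chr11:119343425-119355536, minus strand) was at 20.9, 19.4 and 22.5 CPM in CTL and at 47.6, 36.5 and 41.6 CPM in Nelfb-/- cells. The CTL libraries were tightly grouped and every Nelfb-/- library was higher (log2 fold change 0.995, SE 0.15, limma adjusted p = 0.0109), and the log2 fold change was 0.90 without Nelfb-/- replicate 1. It passed the 2-fold limit without CTL replicate 3 (1.05) or without Nelfb-/- replicate 2 (1.09). Its adjusted p ranged from 0.0124 to 0.0644 over the 6 omissions, and it was over 0.05 without CTL replicate 2 or Nelfb-/- replicate 3. Arsa (arylsulfatase A, which desulfates sulfatide; chr15:89472476-89477425, minus strand) was at 49.0, 53.4 and 74.9 CPM in CTL and at 33.5, 25.1 and 29.8 CPM in Nelfb-/- cells. All Nelfb-/- libraries were lower than all CTL libraries (log2 fold change -0.99, SE 0.21, limma adjusted p = 0.0252). Without Nelfb-/- replicate 1 its log2 fold change was -1.08, which is a call. With each library left out in turn its adjusted p ranged from 0.0255 to 0.0976, and it was over 0.05 without CTL replicate 1, CTL replicate 2, Nelfb-/- replicate 2 or Nelfb-/- replicate 3. Arsb (arylsulfatase B), Acp2 and Acp5 (acid phosphatases) had log2 fold changes of -0.03, 0.27 and -0.24 and did not pass the test, and their 95% intervals lay within 2-fold in either direction. With 1 library left out they ranged from -0.17 to 0.20, from 0.12 to 0.42 and from -0.40 to -0.056. Acp5, which also marks osteoclasts and some macrophages, was at 9.42 to 15.3 CPM in CTL and at 9.55 to 10.7 CPM in Nelfb-/- cells.

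**Figure D1:**
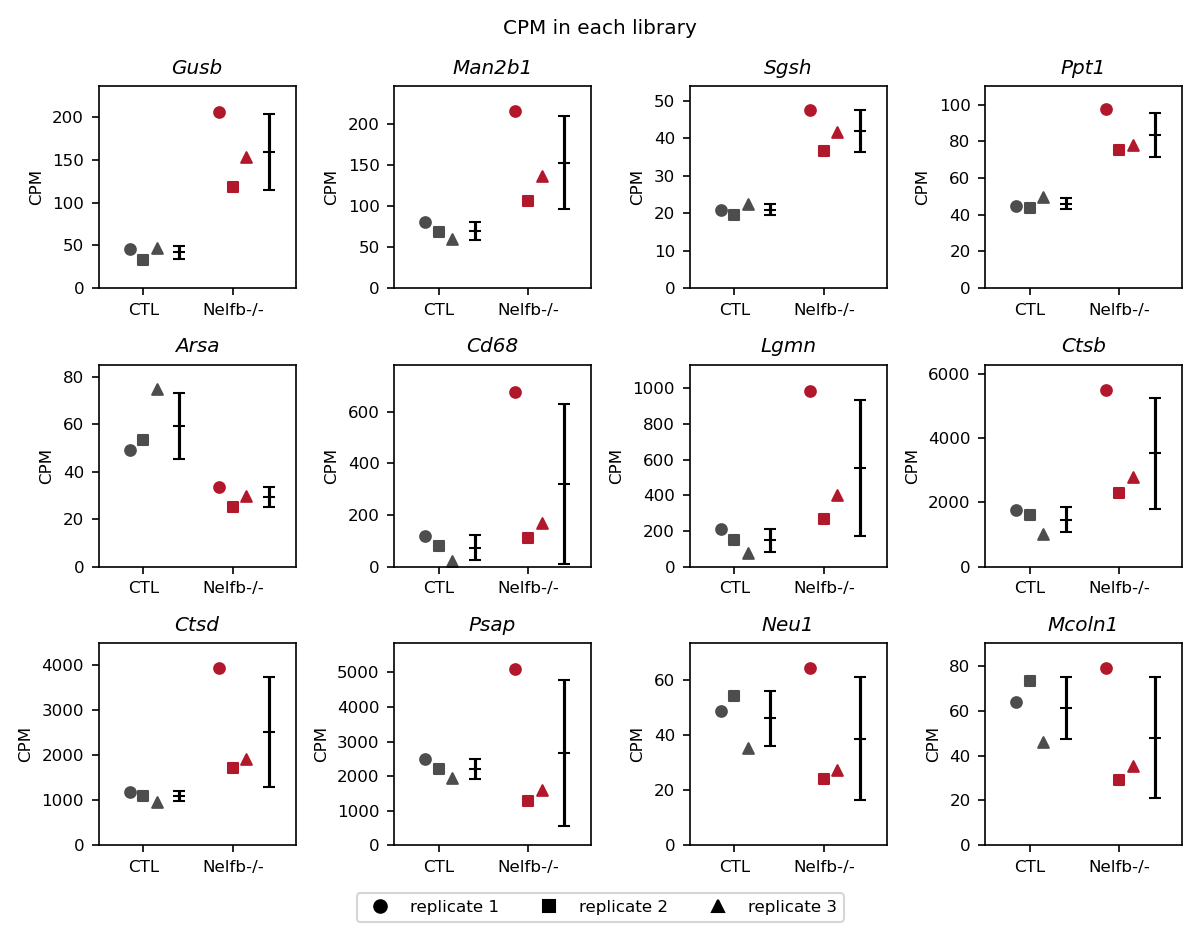
CPM (vertical axes, from 0) of 12 members in the 3 CTL (grey) and 3 Nelfb-/- (red) libraries, with the symbol giving the replicate number and the bar to the right of each group its mean and SD. Gusb, Man2b1, Sgsh and Ppt1 sit higher and Arsa lower in all 3 Nelfb-/- libraries, whereas Psap, Neu1 and Mcoln1 are above every CTL library in replicate 1 and below them in replicates 2 and 3.

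Ppt1 (palmitoyl-protein thioesterase, which removes fatty acids from cysteines; chr4:122836242-122859175, plus strand) was the lipid hydrolase that passed the test. It was at 44.5, 43.8 and 49.4 CPM in CTL and at 97.4, 75.4 and 77.9 CPM in Nelfb-/- cells. The groups were clear of each other (log2 fold change 0.86, SE 0.15, limma adjusted p = 0.0144), and the log2 fold change was 0.74 without Nelfb-/- replicate 1. The adjusted p of Ppt1 ranged from 0.0161 to 0.0674 over the 6 omissions, and it was over 0.05 without CTL replicate 1, CTL replicate 2 or Nelfb-/- replicate 3. Lipa (acid lipase, which hydrolyses cholesteryl esters and triglycerides) was at 144, 129 and 126 CPM in CTL and at 606, 171 and 182 CPM in Nelfb-/- cells. The Nelfb-/- libraries were all higher, but the distance was set mainly by replicate 1, and the fitted log2 fold change (1.002, SE 0.48, limma adjusted p = 0.203) was 0.41 without it. Asah1 (acid ceramidase) had a log2 fold change of 0.35, or 0.20 without replicate 1, and did not pass the test. Smpd1 (acid sphingomyelinase) was at 104, 111 and 109 CPM in CTL and at 88.0, 83.0 and 81.3 CPM in Nelfb-/- cells, with no overlap (log2 fold change -0.36, SE 0.11, limma adjusted p = 0.0789).

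None of the 11 cathepsins and other peptidases was called by limma, and none had an adjusted p of at most 0.05, although 5 of them (Ctsa, Ctsb, Ctsd, Ctsh and Lgmn) were higher in every Nelfb-/- library, as were 22% of all genes. At an unadjusted p under 0.05, 4 were higher (Ctsb, Ctsd, Ctsh and Lgmn) and 0 lower. Ctsb (cathepsin B, a cysteine protease) was at 1762, 1606 and 1012 CPM in CTL and at 5498, 2306 and 2778 CPM in Nelfb-/- cells (log2 fold change 1.21, SE 0.42, adjusted p = 0.103). Ctsd (cathepsin D, an aspartic protease) was at 1190.0, 1084 and 969 CPM in CTL and at 3924, 1705 and 1904 CPM in Nelfb-/- cells (log2 fold change 1.12, SE 0.36, adjusted p = 0.0861). Lgmn (legumain, which cleaves after asparagine and processes cathepsins) was at 210.5, 151 and 78.4 CPM in CTL and at 984, 265 and 404 CPM in Nelfb-/- cells (log2 fold change 1.80, SE 0.56, adjusted p = 0.0754). In these 3 genes the Nelfb-/- libraries ranked as replicates 1, 3 and 2 and the CTL libraries as replicates 1, 2 and 3 from high to low. Without Nelfb-/- replicate 1 their log2 fold changes were 0.83, 0.74 and 1.27. Ctsh (cathepsin H, an aminopeptidase) had another order, at 34.5, 33.4 and 71.7 CPM in CTL and at 78.8, 108 and 94.5 CPM in Nelfb-/- cells (log2 fold change 1.09, SE 0.32, adjusted p = 0.064). Here CTL replicate 3 came near the Nelfb-/- libraries, and Ctsh was called without it (log2 fold change 1.45). Ctsa (cathepsin A, which protects Neu1 and Glb1) was at 219 to 258 CPM in CTL and at 275 to 580.1 CPM in Nelfb-/- cells, with a log2 fold change of 0.57, or 0.23 without replicate 1.

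The other 6 peptidases had log2 fold changes from -0.15 to 0.42. Ctsk (cathepsin K, a collagenase) was at 46.0, 48.0 and 80.1 CPM in CTL and at 68.8, 75.8 and 80.9 CPM in Nelfb-/- cells, and the groups overlapped. Ctsl (cathepsin L) was at 488, 482 and 327 CPM in CTL and at 722, 486 and 511 CPM in Nelfb-/- cells, and they overlapped too. Ctsc (which activates granule proteases), Ctsf, Ctsz and Tpp1 (tripeptidyl peptidase) had log2 fold changes of 0.07, -0.15, 0.06 and 0.07, and of 0.21, -0.21, -0.30 and -0.30 without Nelfb-/- replicate 1. Their direction was not stable, since each changed sign when some library was left out. The 95% intervals of Ctsc, Ctsf, Ctsk, Ctsz and Tpp1 lay within 2-fold.

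Of the 6 membrane proteins, none was called by limma and none had an adjusted p of at most 0.05, and 4 (Lamp1, Lamp2, Scarb2 and Cd63) were higher in every Nelfb-/- library, as were 22% of all genes. At an unadjusted p under 0.05, 2 were higher (Cd63 and Lamp1) and 0 lower. Lamp1 (a heavily glycosylated protein of the boundary membrane) was at 671, 586 and 650.0 CPM in CTL and at 1431, 791 and 910.0 CPM in Nelfb-/- cells (log2 fold change 0.67, SE 0.26, adjusted p = 0.134, and 0.42 without replicate 1). Cd63 (a tetraspanin of late endosomes) was at 142, 150.5 and 188 CPM in CTL and at 248, 240.2 and 222 CPM in Nelfb-/- cells, and it missed the threshold narrowly (log2 fold change 0.57, SE 0.16, adjusted p = 0.0525). In contrast to Lamp1, its Nelfb-/- libraries were close to each other. Lamp2 (needed for fusion with autophagosomes) and Scarb2 (the carrier of beta-glucocerebrosidase) had log2 fold changes of 0.42 and 0.28, or 0.27 and 0.26 without replicate 1. Cd68, a glycoprotein of macrophage lysosomes, was at 118, 79.7 and 22.9 CPM in CTL and at 679, 112 and 171 CPM in Nelfb-/- cells. It had the highest fitted change of all members and the widest error (log2 fold change 1.97, SE 0.83, adjusted p = 0.158), and its groups overlapped. Without replicate 1 its log2 fold change was 1.21. Mcoln1 (a calcium channel that signals to Tfeb) was at 63.9, 73.4 and 46.0 CPM in CTL and at 79.1, 29.3 and 35.6 CPM in Nelfb-/- cells. Replicate 1 was again above, and replicates 2 and 3 below, every CTL library (log2 fold change -0.46, SE 0.39, or -0.89 without replicate 1).

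The 3 activator proteins and granulin had the widest spread between Nelfb-/- libraries, where replicate 1 was in the median 2.60 times the mean of the others. Psap (prosaposin, the precursor of saposins that present lipids to hydrolases) was at 2489, 2196 and 1932 CPM in CTL and at 5088, 1281 and 1601 CPM in Nelfb-/- cells. Its log2 fold change of -0.0057 (SE 0.54) therefore stood between replicate 1, above every CTL library, and replicates 2 and 3, below every CTL library. Without replicate 1 it was -0.62 and did not pass the test. Grn (granulin precursor, split into granulins in the lysosome) was at 397, 326 and 287 CPM in CTL and at 1128, 378 and 488 CPM in Nelfb-/- cells. Gm2a (the GM2 ganglioside activator) was at 273, 268 and 82.9 CPM in CTL and at 509.5, 269 and 253 CPM in Nelfb-/- cells, and here CTL replicate 3 stood apart. Neither passed the test, with log2 fold changes of 0.83 and 0.84, or 0.37 and 0.52 without Nelfb-/- replicate 1. Without CTL replicate 3 the log2 fold change of Gm2a was 0.27.

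The mRNAs of the TFEB factors did not pass the test, and neither had an unadjusted p under 0.05. Tfeb was at 9.11, 11.6 and 9.25 CPM in CTL and at 14.7, 8.79 and 9.42 CPM in Nelfb-/- cells (log2 fold change 0.10, SE 0.25, adjusted p = 0.806). Tfe3 was at 72.5, 75.1 and 65.0 CPM in CTL and at 85.3, 57.3 and 62.7 CPM in Nelfb-/- cells (log2 fold change -0.07, SE 0.18, adjusted p = 0.823). The 95% intervals were -0.49 to 0.70 for Tfeb and -0.50 to 0.36 for Tfe3, that is, within 2-fold in either direction. In both genes replicate 1 was the highest library, and the log2 fold changes were -0.12 for Tfeb and -0.24 for Tfe3 without it. Transcript levels do not show how much of either protein was in the nucleus.

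**Figure D2:**
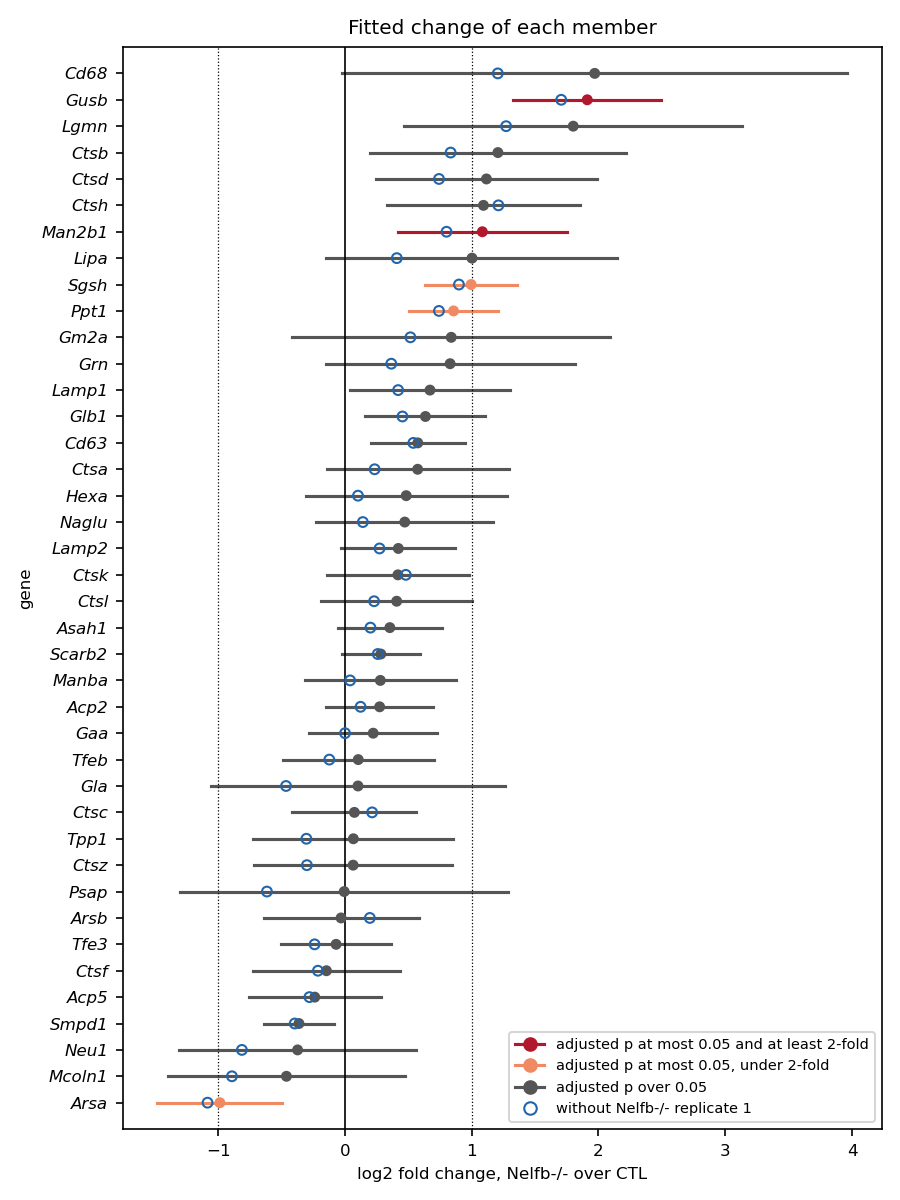
Log2 fold change of each member, Nelfb-/- over CTL, with its 95% interval (horizontal axis, filled points and lines), and the same without Nelfb-/- replicate 1 (open circles). Gusb at 1.91 and Man2b1 at 1.08 were called, and the open circles lie to the left of the filled points for most members, with the widest interval at Cd68.

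Replicate 1 was the library with the highest level of the members as a group. It was the highest of the 6 libraries for 32 of the 40 members (80%), beside 25.5% of all genes tested, and it was at least 2 times the mean of the other Nelfb-/- libraries for 14 members (35%), beside 9.73% of all genes. The median of this ratio was 1.60 over the members and 0.991 over all genes. The members summed to 10764, 9905 and 8486 CPM in CTL and to 25587, 11055 and 12707 CPM in Nelfb-/- cells. All 3 Nelfb-/- sums were thus higher, replicate 2 only narrowly so, and Psap, Ctsb and Ctsd made up 46.1% to 56.7% of the sum in each library. Without these 3 genes the sums were 5322, 5019.6 and 4573 CPM in CTL and came to 11077, 5762 and 6425 CPM in Nelfb-/- cells.

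The groups did not overlap for 16 members that were higher in Nelfb-/- cells (40%, beside 22% of all genes) and for 2 that were lower (5%, beside 16.1%). The same 16 members were higher in replicates 2 and 3 than in every CTL library when replicate 1 was set aside (40%, beside 32.7% of all genes), whereas 7 members were then lower than in every CTL library (17.5%, beside 25.5%). The log2 fold change was positive in 31 members (77.5%, beside 54.6%), and its median was 0.41 over the members and 0.068 over all genes. Without replicate 1 the medians were 0.22 and 0.054, and 12 members were negative. A group of 8 members was at least 2-fold higher (20%, beside 14% of all genes), and 6 of these (Cd68, Ctsb, Ctsd, Ctsh, Lgmn and Lipa) were not called. In 5 members, Mcoln1, Gla, Neu1, Psap and Tfe3 (12.5%, beside 3.41% of all genes), replicate 1 was above and replicates 2 and 3 were below every CTL library. The SE was 0.4 or more for 8 members, whereas 17 members had a 95% interval within 2-fold in either direction.

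**Figure D3:**
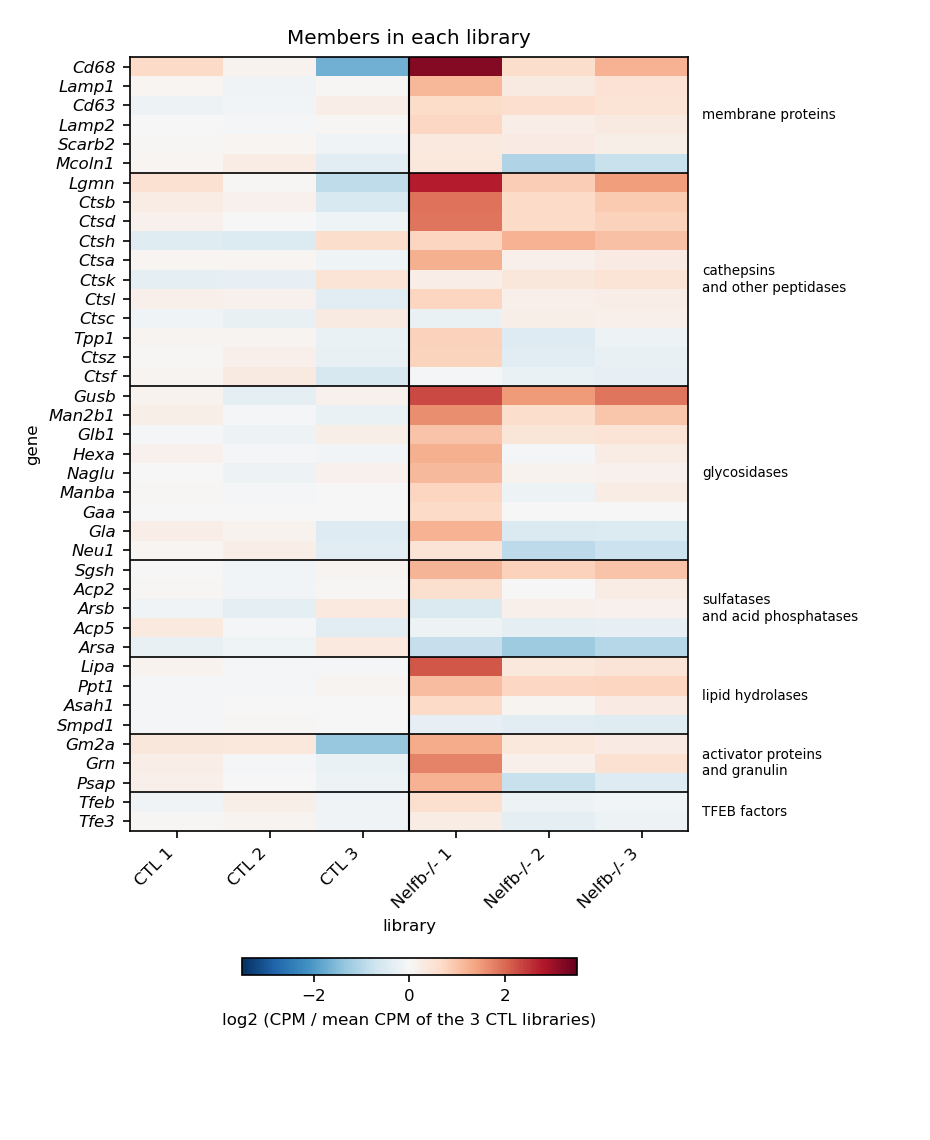
Log2 of CPM over the mean CPM of the 3 CTL libraries (colour) for the 40 members (rows, grouped by role) in the 6 libraries (columns). The column of Nelfb-/- replicate 1 is the most red, as it was the highest library for 32 members, and the rows of Psap, Mcoln1, Neu1 and Gla change from red in replicate 1 to blue in replicates 2 and 3.

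By role, the median log2 fold change was 0.83 for the activator proteins and granulin, 0.61 for the lipid hydrolases, 0.50 for the membrane proteins, 0.47 for the glycosidases, 0.42 for the peptidases, 0.02 for the TFEB factors and -0.03 for the sulfatases and acid phosphatases. Without replicate 1 the medians were 0.37, 0.31, 0.35, 0.10, 0.23, -0.18 and 0.12 in the same order. The order of the roles was therefore not the same in both fits, and each rests on few genes. Divided by exon length (the union of the exons of each gene), the highest levels in CTL were 804 CPM per kb for Psap, 459.8 for Ctsd, 241 for Ctsb and 238 for Lamp1. In Nelfb-/- cells they were 1068 CPM per kb for Ctsd, 968 for Psap, 583 for Ctsb and 390.4 for Lamp1. The lowest level was that of Tfeb, at 1.76 CPM per kb in CTL and 1.93 in Nelfb-/- cells, with Tfe3 at 7.65 and 7.39. Gusb, at 9.17 CPM per kb in CTL and 35.0 in Nelfb-/- cells, stayed far below the abundant cathepsins in both groups.

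Markers of macrophages moved with the genotype and with replicate 1. All 15 tested of 16 listed macrophage markers were called higher (Adgre1, C1qa, C1qb, C1qc, Cd14, Cd163, Csf1r, Ctss, Fcer1g, Itgam, Laptm5, Lyz2, Mrc1, Ptprc and Tyrobp, and 12 of them without replicate 1), and Cx3cr1 was too low to be tested. Their sums were 1105, 538 and 303 CPM in CTL and reached 9240.0, 2910 and 4958 CPM in Nelfb-/- cells. The receptor Csf1r was at 22.6, 12.3 and 15.5 CPM in CTL and at 206, 87.0 and 148 CPM in Nelfb-/- cells, and the lysozyme Lyz2 was at 294, 143 and 69.5 CPM in CTL and at 3038, 911 and 1583 CPM in Nelfb-/- cells. The 6 libraries ranked in the order of this sum for Ctsa, Ctsb, Ctsd, Lgmn, Man2b1 and Lipa (15% of the members, beside 2.09% of all genes). Of the 15 tested macrophage markers 13 followed this order, and Csf1r and Cd14 did not. Gusb, Sgsh, Ppt1 and Arsa did not follow it over the 6 libraries. Within the Nelfb-/- group alone, Gusb, Sgsh and Ppt1, which were higher than in CTL, and Arsa, which was lower, all ranked as the macrophage sum did. The share of all genes with this order within the Nelfb-/- group was not counted. The part of the macrophage markers in these results was not tested.

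**Figure D4:**
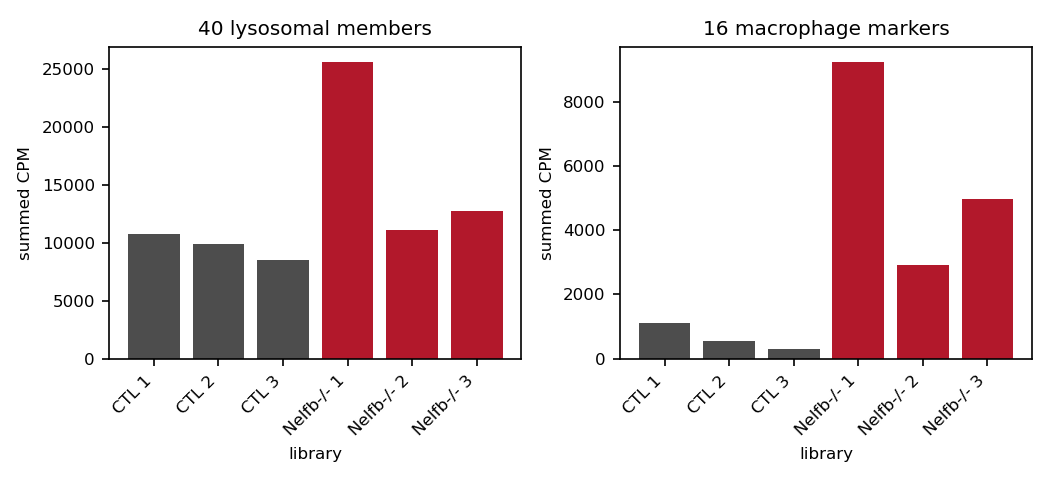
Summed CPM (vertical axes, from 0) of the 40 members (left) and of the 16 macrophage markers (right) in each library. Both sums are highest in Nelfb-/- replicate 1, at 25587 CPM for the members, and the macrophage sums of the Nelfb-/- libraries are all above the CTL range of 303 to 1105 CPM.

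Markers of other cell types differed as well. All 5 melanocyte markers (Dct, Mlana, Pmel, Tyr and Tyrp1) were called higher, with sums of 1.22 to 1.43 CPM in CTL and 30.3 to 72.1 CPM in Nelfb-/- cells, as were the 4 tested of 5 skeletal muscle markers, Acta1, Des, Myh3 and Myog (6.91 to 9.15 and 42.1 to 67.9 CPM). Of 4 keratinocyte markers Krt14 was called higher (sums over the list of 2.58 to 2.89 and 6.40 to 14.0 CPM). Of 5 tested osteoclast markers Tnfrsf11a was called higher (sums over the list of 24.1 to 54.0 and 44.2 to 101 CPM). By limma, none of 7 fibroblast markers, of 3 tested endothelial markers (5.27 to 6.45 and 6.11 to 16.4 CPM) and of 1 tested mast cell marker (1.16 to 4.81 and 2.27 to 10.4 CPM) was called. The fibroblast markers summed to 4365, 3799 and 13865 CPM in CTL and to 6464, 20263 and 22706 CPM in Nelfb-/- cells, so that Nelfb-/- replicate 1 was far below the other Nelfb-/- libraries and CTL replicate 3 far above the other CTL libraries. At an unadjusted p under 0.05, 2 fibroblast markers, 1 endothelial marker and 0 mast cell markers were higher, and 0 were lower. The part of these cells in the levels of the members was not tested.

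The other genes of the pathway were read from 6 further lists of 116 genes, of which 5 (4 hydrolases or membrane proteins and Tfec) were called higher and 1 (Naaa) was called lower. These shares of 4.31% and 0.862% lay below the 7.58% and 3.64% of all genes. Their median log2 fold change was 0.08, near the 0.068 of all genes, and -0.096 without replicate 1. Among 28 other lysosomal hydrolases (median 0.37, or 0.19 without replicate 1), Ctss and Pla2g15 were called higher and Naaa lower. Pla2g15 (a lysosomal phospholipase) was at 44.1, 34.6 and 60.4 CPM in CTL and at 110.1, 102 and 104 CPM in Nelfb-/- cells (log2 fold change 1.22, SE 0.21, limma adjusted p = 0.015). Ctss (cathepsin S), which is also a macrophage marker, was at 159, 67.5 and 36.4 CPM in CTL and at 1015, 249 and 408 CPM in Nelfb-/- cells. Naaa (which hydrolyses palmitoylethanolamide) was at 43.7, 45.1 and 81.9 CPM in CTL and at 17.0, 29.2 and 25.9 CPM in Nelfb-/- cells (log2 fold change -1.22, SE 0.32, limma adjusted p = 0.0466). Pla2g15 and Naaa showed no overlap between the groups.

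Among 26 other membrane proteins and transporters (median 0.09, or -0.11 without replicate 1), Tpcn2 and Slc36a1 were called higher. Slc36a1 (a proton-coupled amino acid transporter) was at 22.6, 22.2 and 23.3 CPM in CTL and at 73.2, 38.4 and 54.4 CPM in Nelfb-/- cells (log2 fold change 1.23, SE 0.24, limma adjusted p = 0.0199). Tpcn2 (an endolysosomal cation channel) was at 6.95, 6.49 and 10.6 CPM in CTL and at 22.8, 16.2 and 16.3 CPM in Nelfb-/- cells. By limma, none of 18 subunits of the V-ATPase, the proton pump of the lysosome, was called (median 0.18, or -0.17 without replicate 1), and Atp6v0e alone had an adjusted p of at most 0.05, with a log2 fold change of -0.51, while at an unadjusted p under 0.05 there was 1 higher (Atp6ap2) and 1 lower (Atp6v0e). None of 10 genes for the sorting of enzymes to lysosomes was called by limma (median 0.30, or 0.16 without replicate 1). Of these, Gnptab (which makes the mannose-6-phosphate tag) was at 69.5, 64.1 and 61.6 CPM in CTL and at 135, 124 and 122 CPM in Nelfb-/- cells, just below 2-fold (log2 fold change 0.96, SE 0.12, adjusted p = 0.00663). Nagpa (which uncovers the tag) and Sumf1 (which activates sulfatases) also had an adjusted p of at most 0.05, with log2 fold changes of 0.98 and 0.78. With no limit on the fold, 3 of the 10 were thus higher, beside 9.96% of all genes. These 3 genes, named after their values were seen, were also those with an unadjusted p under 0.05.

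Of 16 genes of the mTORC1 and Rag control of TFEB (median -0.16, or -0.21 without replicate 1), Tfec, a relative of Tfeb found in myeloid cells, was called higher. It was at 1.35, 0.65 and 0.24 CPM in CTL and at 16.1, 5.01 and 8.61 CPM in Nelfb-/- cells, in the order of the macrophage sum (log2 fold change 3.77, SE 0.68, limma adjusted p = 0.0168). None of 18 autophagy genes was called by limma (median -0.07, or -0.25 without replicate 1), with 1 higher and 2 lower at an unadjusted p under 0.05. Over the 116 genes, 21 had the pattern of Psap, with replicate 1 above and replicates 2 and 3 below every CTL library (3.41% over all genes tested). The 5 calls of higher genes over the 116 fell to 0 without Nelfb-/- replicate 3, to 1 without CTL replicate 2 and to 3 without CTL replicate 1 or Nelfb-/- replicate 2. The 1 call of a lower gene became 6 without Nelfb-/- replicate 1 (Ctns, Fnip1, Mitf, Optn, Rragd and Ulk1), and it was 0 when any other library was left out. Over all genes the higher calls also went from 1232 to 290 without Nelfb-/- replicate 3 and to 536 without CTL replicate 2, and the share called lower was 4.38% without Nelfb-/- replicate 1.

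**Figure D5:**
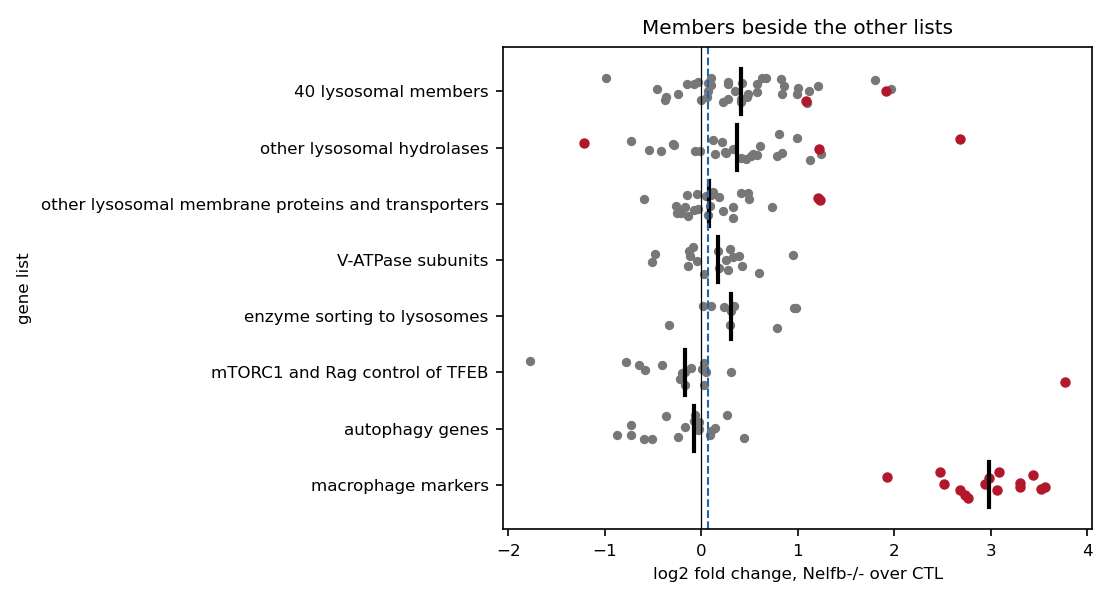
Log2 fold change, Nelfb-/- over CTL (horizontal axis), of each tested gene (points) in the 40 members, the 6 further lists and the macrophage markers, with called genes in red, the median of each list as a black bar and the median of all genes as a dashed blue line. The members' median of 0.41 lies to the right of the 0.068 of all genes, the lists of TFEB control and autophagy lie to the left of it, and the macrophage markers all lie at 1.93 or more.

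In places the span of a member, from its start to its end with introns included, overlaps that of a neighbour. Among others, Ctsb overlaps Fdft1, Ctsa overlaps Pltp and Ppt1 overlaps Cap1 on the opposite strand. On the same strand Glb1 overlaps Tmppe, and Ctsd overlaps Gm49369, which was at a mean of 0.32 CPM. Cap1, the neighbour of Ppt1, was at a mean of 271 CPM, and the 2 spans share 130 bases. The log2 fold changes of Fdft1, Pltp, Cap1 and Tmppe were -0.64, -1.01, 0.56 and 0.41. Whether reads were counted by strand is not given in the sources used here, so that reads from these overlaps cannot be told apart.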

How the data were processed

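Total RNA of 3 CTL and 3 Nelfb-/- cultures was sequenced. The authors aligned reads to mm10, and the submitters' processing notes name STAR 2.7 and Partek 9.0.20.0202. The authors' methods name DESeq2 with default settings for the alignment, and a threshold of 10 reads for expressed genes. Their test of differential expression was an ANOVA in Partek Genomic Suite, with an FDR of at most 0.05 and at least 2-fold. The counting, annotation and strand setting are not given in the sources used here. The deposited values are CPM, since each column summed to 1e+06 after an offset of 0.0001 was subtracted. All 6 value columns were matched to samples by name.

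CPM were multiplied by the geometric mean depth (22.3 M reads), so that 1 unit is about 1 read. Depth was read from the step between low values, of which 72.6% to 75.0% up to 20 reads were whole within 0.05 reads, and they were therefore not treated as read counts. Genes with a mean of at least 10 were tested on log2(value + 1) with limma 3.58.1 in R 4.3.3, with an abundance trend and Benjamini-Hochberg adjustment over 16251 genes. Fold changes are on that scale. All 40 members are named. From each other list up to 3 called genes with the smallest adjusted p are named, and from the marker lists those that were called or lay at or under 3 reads throughout. Other genes of these lists that are named were chosen after their values were seen. The markers of 1 cell type are not reported here. Scripts were tested on simulated data. Members and lists were chosen with earlier results of these data known. Alternatives were other pseudocounts, filters, scalings and variance models, each library left out and a replicate block. Positions are from GENCODE vM21 and promoters from RefSeq. Each p-value sets the difference between the groups against the spread between these cultures, which limma moderates with the spread of the other genes.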

Additional observations from a re-analysis of the deposited data

How the results depend on the processing

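The counts of members called higher and lower (2 and 0) kept their values with a pseudocount of 5, with a pseudocount of 1 CPM and a mean of at least 1 CPM, with no filter and with at least 10 in at least 3 libraries. They were 1 and 1 with median-of-ratios scaling, 1 higher without the abundance trend and 1 lower with quantile normalization. With 1 library left out they ranged from 1 to 3 and from 0 to 1. For the other lysosome and autophagy genes (5 and 1) these ranges were 0 to 5 and 0 to 6, and the count lower was 0 without the abundance trend. The median of the members ranged from 0.22 to 0.51, and calls over all genes from 426 (without Nelfb-/- replicate 3) to 2480 (without CTL replicate 3), where 1824 were made with all 6. Gusb was called in every alternative.

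Signs changed under scaling for Ctsz (-0.0042) and Tpp1 (-0.0023) with median-of-ratios, and for Tfeb (-0.065) with quantile normalization. With 1 library left out the sign changed within -0.040 to 0.24 for Ctsc, -0.40 to 0.040 for Ctsf, -0.30 to 0.28 for Ctsz, -0.30 to 0.33 for Tpp1, -0.46 to 0.39 for Gla, -0.17 to 0.20 for Arsb, -0.62 to 0.38 for Psap, -0.12 to 0.24 for Tfeb and -0.24 to 0.048 for Tfe3. The cause was not tested.

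The labels number replicates 1 to 3 in each group, but the deviations of same-numbered libraries correlated at 0.515, -0.395 and 0.518, and CTL replicates 2 and 3 correlated best with another number, so that the numbers were not taken as pairs. With the replicate block 5 members were called higher (Cd68, Ctsh and Lgmn in addition), which is 12.5%, beside 9.26% of all genes (1505 higher of 2175 called). Every member lay far above the floor of 3 reads. The SE was 0.4 or more for 8 members, and without Nelfb-/- replicate 1 it was 0.70 for Cd68, 0.33 for Ctsb, 0.45 for Lgmn, 0.23 for Gla, 0.12 for Lipa, 0.26 for Psap, 0.55 for Gm2a and 0.21 for Grn.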

Other observations

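The pattern of Psap, with Nelfb-/- replicate 1 above and replicates 2 and 3 below every CTL library, was also seen in genes that control TFEB, which were chosen here after their values were seen. Rragd (a Rag GTPase that recruits mTORC1 to lysosomes) was at 28.9, 28.6 and 14.3 CPM in CTL and at 33.4, 2.62 and 3.30 CPM in Nelfb-/- cells. Fnip2 (a partner of folliculin) was at 109, 112 and 47.2 CPM in CTL and at 320.0, 29.6 and 38.8 CPM in Nelfb-/- cells. Mitf (a relative of Tfeb) was at 62.8, 72.4 and 47.2 CPM in CTL and at 96.3, 21.6 and 26.8 CPM in Nelfb-/- cells. With all 6 libraries none of the 3 passed the test. Without Nelfb-/- replicate 1 the log2 fold changes of Rragd, Fnip2 and Mitf were -2.93, -1.29 and -1.31. The limma adjusted p was then 0.0122 for Rragd and 0.0207 for Mitf, while Fnip2 still did not pass the test (0.0845). Whether these genes and Mcoln1, Neu1 and Psap move together for a shared reason was not tested.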
